A study of Mus musculus with 10 samples.

Results

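The genes described here are 37 members of the cytoskeletal machinery with which a macrophage engulfs a particle or a dying cell. They were taken as a list of gene symbols, and all 37 were matched to the Ensembl gene IDs of the count table, which holds 54307 genes. RNA was sequenced from bone-marrow-derived macrophages, which are macrophages grown from mouse bone marrow in a medium with L-929-conditioned supernatant and harvested at day 7. Of the 10 libraries, 5 came from control mice, labelled wild type, and 5 from hWDFY3KI/KI mice, labelled as overexpressing human WDFY3. WDFY3 is a large scaffold protein of selective autophagy. The animals were males aged 6 to 8 weeks, with 1 library for each replicate number. What drives the human gene, where it sits and the strain are not stated in the labels. The comparison asks how the macrophage transcriptome changes when WDFY3 is overexpressed.

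Engulfment is driven by actin. A receptor that has bound its target recruits the adaptor CrkII and the pair of ELMO and DOCK proteins, which load the small GTPase Rac with GTP. Rac switches on the WAVE complex and Cdc42 switches on the WASP proteins, and both then activate the Arp2/3 complex, which grows branched actin filaments that push the membrane around the target. Cofilin, profilin and coronin turn the filaments over, and class I myosins and dynamin shape and close the cup.

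Libraries held 14617652 to 36387405 estimated counts. Levels are given as CPM, counts relative to the library total after scaling the libraries to each other, as the mean ± SD over 5 libraries. Differences are given as fitted log2 fold changes of knock-in over control ± SE, tested with edgeR's quasi-likelihood test and Benjamini-Hochberg adjustment over all 12411 genes tested. The macrophage genes Lyz2 and Csf1r were at 23061 ± 4636 and 1666 ± 195 CPM in the controls, while 9 stromal markers other than Fn1 summed to 2.44 to 176 CPM per library. Those 9 were highest in controls 1 and 4 and knock-in 4, at 176, 174 and 106 CPM, against 2.44 to 25.5 CPM in the other 7 libraries. Neutrophil markers other than Mmp8 were highest in the same 3 libraries, at 36.8, 46.9 and 18.4 CPM against 3.49 to 12.5 CPM. Markers of T and B cells summed to 22.2 to 49.5 CPM, mostly Cd4, those of dendritic cells to 505 to 1028 CPM, of which Itgax, a gene that macrophages also express, gave 502 to 1024 CPM, and those of red cells and of mast cells and basophils to at most 0.490 and 1.57 CPM. Mouse Wdfy3 itself was at 100.0, 101, 119, 108 and 121 CPM in controls 1 to 5 and at 124, 119, 111, 119 and 127 CPM in knock-in 1 to 5. The groups overlapped (log2 0.13 ± 0.066, adjusted p = 0.811), and since the table counts mouse genes, this value does not check the genotype labels.

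No member differed between the genotypes in the test. Of the 37 members, 36 were expressed strongly enough to be tested, and 0 of these had an adjusted p under 0.05 in edgeR, where 0.0806% of all tested genes did (0.0403% higher in knock-in cells, 0.0403% lower). DESeq2, limma-voom and limma-trend also called 0 members. An unadjusted p under 0.05 was found for 1 of 36 members, Arpc5, where 6.21% of all tested genes had one (3.29% higher and 2.92% lower). The fitted changes were small and bounded. They ran from -0.10 for Arpc2 to 0.096 for Cfl1, and the 95% intervals of all 36 lay between -0.22, the lower end for Arpc2, and 0.28, the upper end for Wipf1. On the linear scale these ends are 0.857-fold and 1.22-fold. For 25 of the 36 the whole interval lay within 0.2 of 0 on the log2 scale. Each interval covers its own gene, without adjustment for their number.

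**Figure D1:**
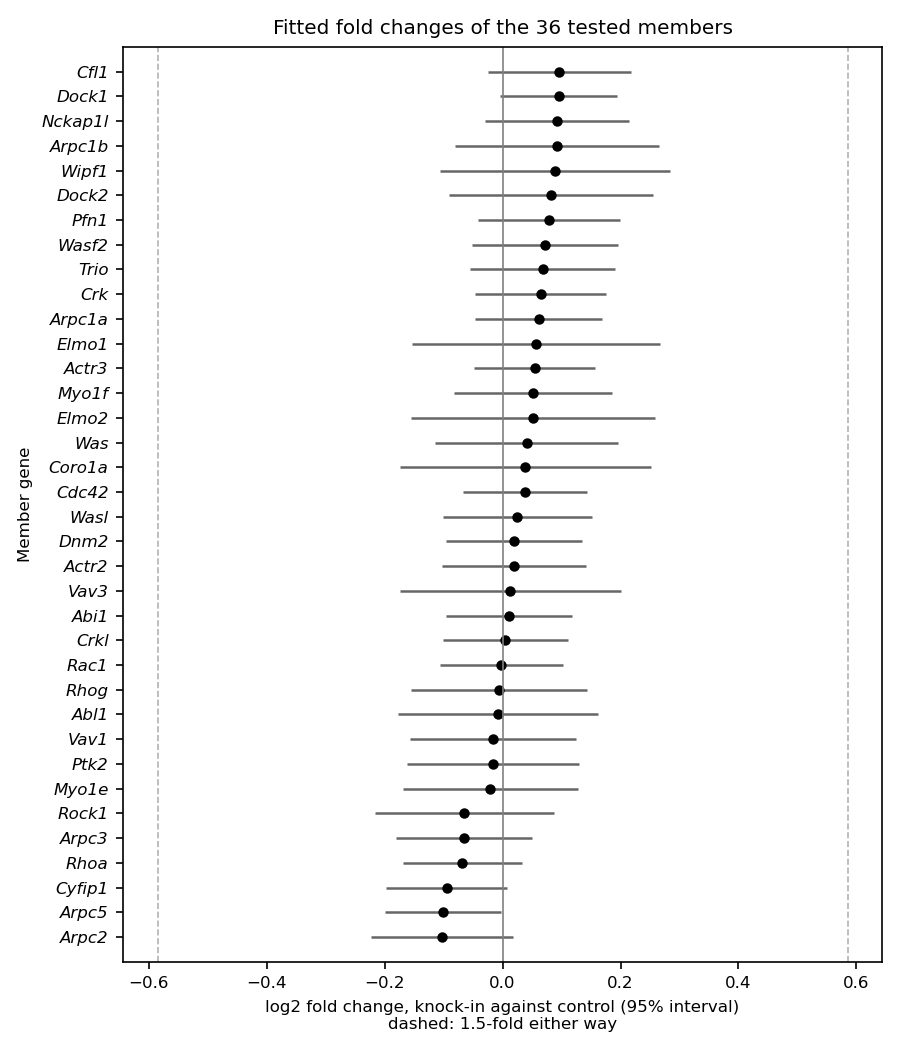
Fitted log2 fold change (point) and 95% interval (line) of the 36 tested members, knock-in against control, 5 libraries per group. All intervals lie inside the dashed lines, which mark a 1.5-fold difference either way.

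The median fold change of the 36 was 0.031, against -0.0046 over all tested genes, and 24 of the 36 were positive (66.7%), against 48.3% of all tested genes. Without controls 1 and 4 and knock-in 4 the median was 0.014 and 21 were positive. In the regularized-log values that the authors deposited, the differences of the 36 ran from -0.083 for Rock1 to 0.087 for Nckap1l, with the same sign as in edgeR for 31. In all, the 37 genes took 1.12% of the counts in the controls and 1.14% in the knock-in macrophages.

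The levels per length spanned a wide range. Divided by the length of their exons in GENCODE M21, the tested members ran from 1.94 CPM per kb for Ptk2 to 406 CPM per kb for Cfl1 in the controls. Cfl1, Arpc2, Cdc42, Pfn1 and Arpc5 were the 5 highest, and the kinases Ptk2, Abl1 and Rock1, the exchange factors Trio and Dock1, Wasl and Elmo1 the 7 lowest. Taking the longest annotated transcript as the length kept 8 of the 10 highest members among the 10 highest. Which transcripts of a gene the macrophages use was not analysed here, so levels per length depend on the annotation.

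**Figure D2:**
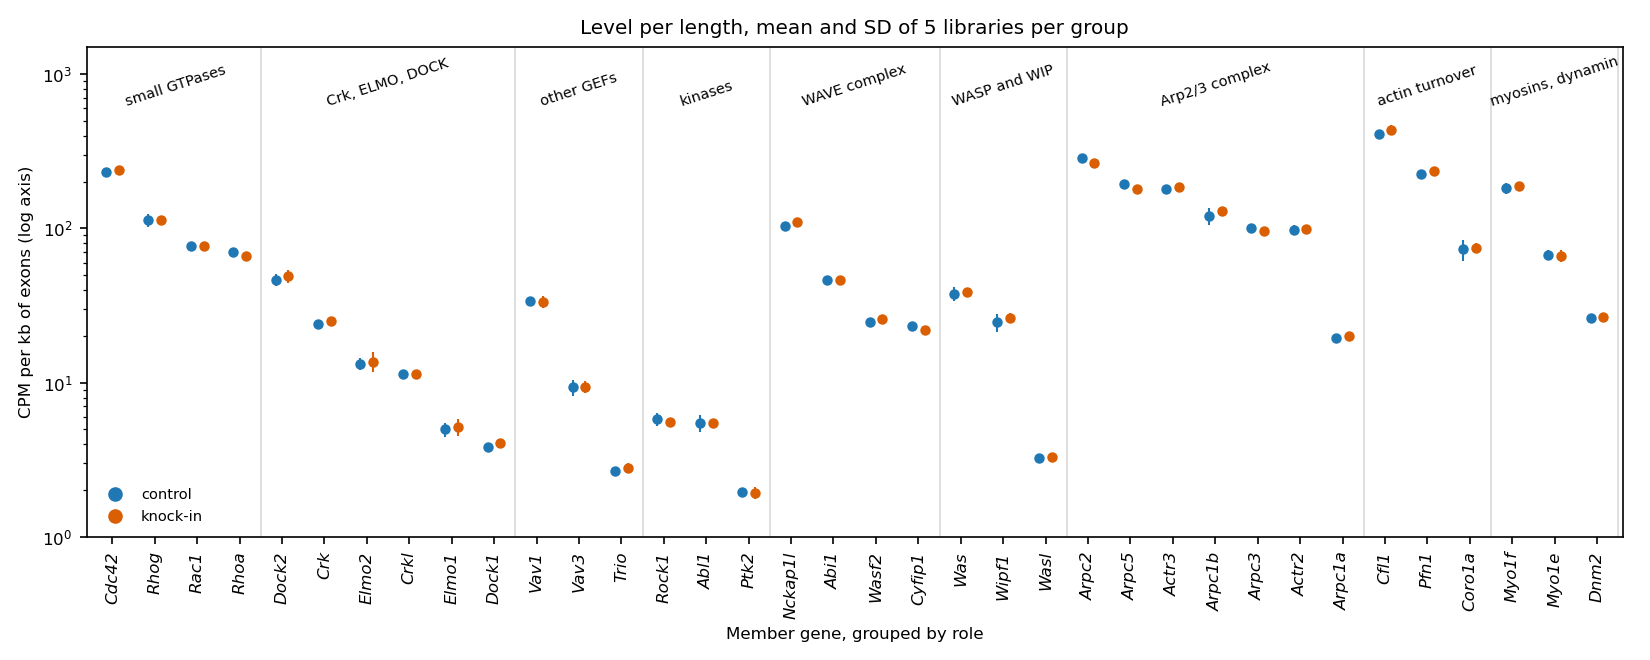
CPM per kb of exons on a log axis for the 36 tested members by role, mean and SD of 5 libraries per group (controls blue, knock-in orange). The 2 groups lie almost on top of each other at every level from Ptk2 (1.94 in the controls) to Cfl1 (406).

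Small GTPases are the switches of the pathway. Cdc42, which activates the WASP proteins and forms filopodia, was the highest per length of the 4, at 233 ± 8.75 CPM per kb in the controls and 239 ± 8.26 in the knock-in macrophages. Its CPM was 703, 730.3, 674, 665 and 685 in controls 1 to 5 and 742, 703, 704, 677 and 724 in knock-in 1 to 5. These values overlapped throughout (log2 0.038 ± 0.049, adjusted p = 0.911). Rhoa, which drives contraction, was at 542, 541, 509, 506 and 520.1 CPM in controls and 509.8, 478, 495, 504 and 511 CPM in knock-in cells. Over the union of exons Rhoa was the lowest per length of the 4. With the longest transcript as length Rac1 was lower, at 83.6 against 103 CPM per kb in the controls. All 5 knock-in libraries lay below the control median of Rhoa, but the groups overlapped (log2 -0.068 ± 0.047, adjusted p = 0.849). Rac1, the GTPase that ELMO and DOCK load, was at 348 ± 13.9 and 347 ± 10.6 CPM, with an interval of the log2 difference from -0.11 to 0.10. Rhog, which acts upstream of ELMO, was at 161 ± 14.9 and 160.1 ± 9.69 CPM. Rac2, the blood-cell form of Rac, is not a member and had 1.69 ± 0.274 times the per-length level of Rac1 in the controls and 1.67 ± 0.146 times in the knock-in macrophages.

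Of the module of CrkII, ELMO and DOCK, 6 genes were tested and all 6 had a positive fold change, also with both other scalings, from 0.0047 for Crkl to 0.095 for Dock1, where 48.3% of all tested genes were positive. None passed the test. The sign of 1 of them was negative in 6 of the 10 fits that left out a library: Crkl without control 1, control 3, knock-in 3 or knock-in 5, Elmo1 without control 4, and Elmo2 without knock-in 1. Dock1, or DOCK180, the widely expressed exchange factor for Rac, was at 36.1, 35.9, 35.1, 33.4 and 36.7 CPM in controls 1 to 5 and at 37.4, 37.9, 39.0, 37.1 and 37.8 CPM in knock-in 1 to 5. Every knock-in library was above every control library, by a small margin (log2 0.095 ± 0.046, adjusted p = 0.799). Such a lack of overlap was found for 2 of 36 members, Dock1 and Cyfip1, and for 1.32% of all tested genes (0.733% with the knock-in group higher, as for Dock1, and 0.588% with it lower, as for Cyfip1). The adjusted p of Dock1 ran from 0.631 to 0.987 over the alternatives.

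Dock2, the DOCK protein of blood cells, had 12.2 ± 0.949 times the per-length level of Dock1 in the controls and 12.1 ± 1.22 times in the knock-in macrophages. Its CPM was 484, 591, 544, 479 and 556 in the controls and 639.6, 572, 549, 485 and 565 in the knock-in macrophages, and the groups overlapped (log2 0.082 ± 0.080, adjusted p = 0.891). The 3 lowest values of Dock2 belonged to controls 1 and 4 and knock-in 4, where stromal marker RNA was highest, and without these libraries the log2 difference was 0.044. Fewer macrophages in a culture and less RNA of a gene per macrophage cannot be told apart in such bulk samples. Macrophage markers went both ways in those libraries. Their sum, mostly Lyz2, was 32969 and 34907 CPM in controls 1 and 4 against 24013 to 26679 CPM in the other controls, and 37070 CPM in knock-in 4 against 30059 to 34490 CPM in the other knock-in libraries. Itgam and Mertk were also highest there within each group. Cd14 was lowest there within each group, at 157, 199 and 165 CPM against 211 to 248 CPM and 176 to 240 CPM. So was Adgre1, which encodes F4/80, at 859.9, 905 and 808 CPM against 941 to 1042 CPM and 809 to 847 CPM. In knock-in 4 its margin was narrow. All knock-in libraries lay below all controls for Adgre1 (log2 -0.21 ± 0.059, adjusted p = 0.548), as for 0.588% of all tested genes. Csf1r was lowest in control 1 and knock-in 4 but not in control 4. Elmo1, a scaffold that joins DOCK proteins to the membrane, had the same 3 libraries lowest, at 60.2, 52.4 and 52.0 CPM against 63.4 to 74.4 CPM in the other 7. Elmo2, its relative, was at 87.9 ± 7.53 and 91.1 ± 13.5 CPM. The per-length level of Elmo2 was 2.69 ± 0.444 times that of Elmo1 in the controls and 2.69 ± 0.487 times in the knock-in macrophages. With the longest transcripts as lengths the mean ratios were 1.655 and 1.652, so their size depends on the annotated length. The adaptors Crk and Crkl were at 113 ± 3.50 and 57.1 ± 2.17 CPM in controls and at 118 ± 6.48 and 57.2 ± 2.47 CPM in knock-in cells.

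Gulp1, an adaptor that binds engulfment receptors through a phosphotyrosine-binding domain, was close to absent in these cultures. It had 4, 4, 0, 2 and 0 counts in controls 1 to 5 and 0, 0, 0, 5 and 0 counts in knock-in 1 to 5, too few to be tested. Apart from control 2, the libraries with counts were controls 1 and 4 and knock-in 4, those with the highest stromal markers. Which cells gave these counts was not tested. A count of 0 allows up to 3 counts, which is 0.131 to 0.205 CPM in the 6 libraries at 0, counting error only. No fold is given, since the levels of both groups are near that limit.

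Further exchange factors were equally steady. Vav1, which activates Rac below Fc receptors and integrins in blood cells, was the highest per length of the 3 and stood at 116, 131, 127, 119.6 and 131 CPM in controls and 116, 123, 124, 114 and 141 CPM in knock-in cells (log2 -0.016 ± 0.065, adjusted p = 0.982). Vav3 was at 56.1 ± 6.59 and 56.5 ± 5.31 CPM, and Vav1 had 3.66 ± 0.375 and 3.56 ± 0.106 times its per-length level. Trio, a large protein with an exchange domain for Rac, was the lowest per length, at 58.8, 61.6, 65.5, 61.1 and 66.7 CPM and 67.7, 66.5, 62.8, 60.6 and 71.2 CPM (log2 0.068 ± 0.057, adjusted p = 0.872). Of the 3 kinases, Rock1, a kinase that drives actomyosin contraction, was at 116, 109.5, 95.9, 91.9 and 109.8 CPM in controls and 109.9, 96.7, 100.1, 97.8 and 95.3 CPM in knock-in cells, a wide scatter in which the groups overlapped. Ptk2, the focal adhesion kinase, lay at 23.4, 23.4, 21.4, 23.0 and 23.4 CPM and 25.3, 24.0, 21.3, 22.4 and 20.4 CPM. Abl1, a tyrosine kinase that phosphorylates Crk and the WAVE complex, was at 63.5 ± 8.30 and 63.2 ± 2.02 CPM.

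Among the tested subunits of the WAVE complex, Nckap1l and Cyfip1 had fold changes of about the same size and opposite sign. Nckap1l, or HEM1, the scaffold subunit of blood cells, was at 610.2, 661, 633, 571 and 594 CPM in controls 1 to 5 and at 695, 680.0, 615, 634 and 648 CPM in knock-in 1 to 5. Each of the knock-in libraries exceeded the control median and the groups overlapped (log2 0.092 ± 0.056, adjusted p = 0.831). Cyfip1, the subunit through which Rac binds the complex, was at 286, 269, 269.8, 292 and 271 CPM in controls and 268, 262, 253, 263 and 254 CPM in knock-in cells. Every knock-in library was below every control library, although the lowest control and the highest knock-in library differed by under 1 CPM (log2 -0.095 ± 0.047, adjusted p = 0.805, and 0.610 to 0.987 over the alternatives). The 2 highest controls were 1 and 4, the controls with the most stromal marker RNA, and without controls 1 and 4 and knock-in 4 the log2 difference was -0.058. Exons of Nipa2 on the opposite strand share 1316 bases with Cyfip1, and Nipa2 was at 75.0 ± 4.25 and 74.8 ± 5.61 CPM. Abi1 and Wasf2, the adaptor and the WAVE protein itself, were at 186 ± 9.28 and 154 ± 7.72 CPM in controls and at 187 ± 3.84 and 162 ± 10.0 CPM in knock-in cells.

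Cyfip2 takes the place of Cyfip1 in the complex. It is not a member, and it had the smallest p of the 96 tested further genes of the pathway. It was at 153, 141, 153, 146 and 146 CPM in controls 1 to 5 and at 156, 183, 161, 156 and 188 CPM in knock-in 1 to 5. The groups did not overlap, with the knock-in libraries above (log2 0.19 ± 0.064, unadjusted p = 0.0109, adjusted p = 0.700, and 0.332 to 0.987 over the alternatives). Such a lack of overlap was found for 1 of the 96 further genes and for 1.32% of all tested genes (0.733% with the knock-in group higher). The per-length ratio of Cyfip1 to Cyfip2 was 1.111, 1.13, 1.046, 1.195 and 1.109 in the controls and 1.02, 0.850, 0.934, 1.00 and 0.804 in the knock-in macrophages. All 5 knock-in ratios were below all 5 control ratios, which follows from the separation of each gene and is no further result. This pair was chosen after the values were seen, so no test is given. With the longest transcripts as lengths the mean ratios were 1.944 and 1.604, so which of both genes is the higher depends on the annotated length. The relative change in the ratio is the same with any length, because the same length factor applies to every library.

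**Figure D3:**
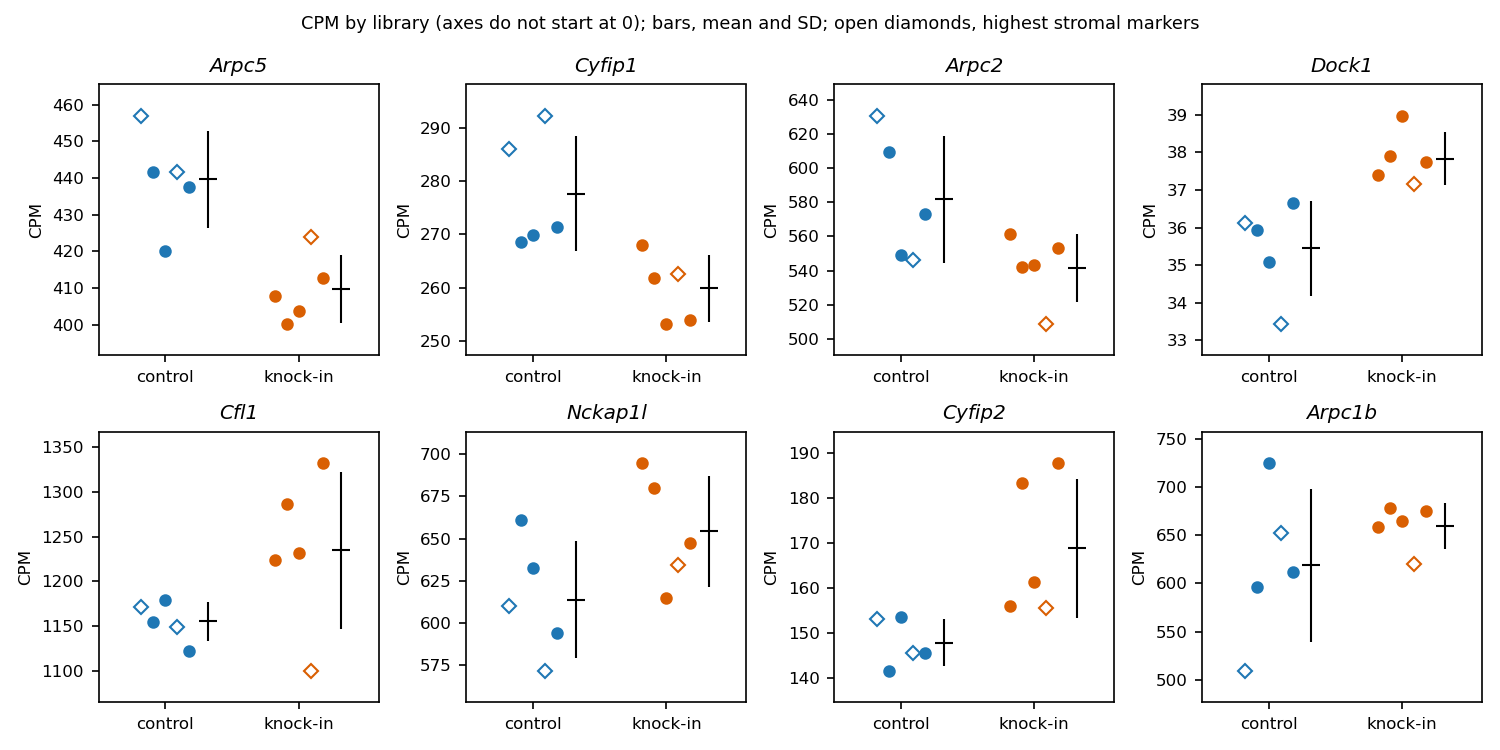
CPM in each library for 6 members with the smallest p of either sign, for Arpc1b, and for Cyfip2, which is not a member; points are libraries, bars the mean and SD of 5. Dock1 (33.4 to 36.7 against 37.1 to 39.0), Cyfip1 and Cyfip2 do not overlap between groups, and the other 5 genes do.

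Was, the WASP protein of blood cells, was at 78.0, 83.6, 103, 89.5 and 95.1 CPM in controls and at 91.5, 96.1, 92.0, 85.6 and 96.6 CPM in knock-in cells. Wasl, the widely expressed N-WASP, was at 19.6, 18.9, 19.6, 20.1 and 21.5 CPM and at 20.2, 19.7, 19.6, 21.7 and 20.2 CPM. Was therefore had 11.7 ± 1.19 times the per-length level of Wasl in the controls and 11.8 ± 0.956 times in the knock-in macrophages. Wipf1, which stabilises WASP, scattered more, with control 1 lowest at 116 CPM and a control range up to 166 CPM (145 ± 19.8 against 154 ± 11.6 CPM). Its interval of the log2 difference, from -0.11 to 0.28, was the widest upward of the 36.

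The Arp2/3 complex holds 7 members. Its summed level was 3308 ± 57.3 CPM in controls and 3307 ± 77.5 CPM in knock-in cells, while its subunits were split, with 4 positive and 3 negative fold changes under each of the 3 scalings. Arpc5 had the smallest p of all members. It was at 457, 442, 420.2, 442 and 438 CPM in controls 1 to 5 and at 408, 400.3, 404, 424 and 413 CPM in knock-in 1 to 5. Only knock-in 4, at 424 CPM, reached into the control range (log2 -0.10 ± 0.045, unadjusted p = 0.0436, adjusted p = 0.788, and 0.319 to 0.987 over the alternatives). Arpc2, a core subunit and the highest per length at 286 ± 18.4 CPM per kb in the controls, was at 631, 609.6, 549, 546 and 573 CPM and 561, 542, 543, 509 and 553 CPM (log2 -0.10 ± 0.056, adjusted p = 0.812). All its knock-in libraries lay below the control median, and 3 of them below every control. Arpc3 was at 279 ± 16.0 and 267 ± 8.99 CPM.

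Actr3 and Actr2, which encode the actin-related proteins Arp3 and Arp2 that start the new filament, were at 827 ± 27.2 and 511 ± 34.9 CPM in controls and 859 ± 29.5 and 518 ± 18.4 CPM in knock-in cells. Arpc4, a core subunit outside the list, was at 216 ± 5.19 and 220.3 ± 9.31 CPM. Arpc5l, the relative of Arpc5, had a lower per-length level, so that Arpc5 stood at 26.8 ± 2.88 times Arpc5l in the controls and at 24.99 ± 1.40 times in the knock-in macrophages.

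The subunit at position 1 of the complex comes in a pair of forms, Arpc1a and Arpc1b, and loss of the human ARPC1B is known to impair blood cells. Both genes lie on the plus strand of chromosome 5 in GRCm38, Arpc1a (ENSMUSG00000029621) from 145083830 and Arpc1b (ENSMUSG00000029622) from 145114215, with 5453 bases between them. Arpc1b was at 509, 596, 725, 652 and 612 CPM in controls 1 to 5 and at 658, 679, 665, 620.3 and 676 CPM in knock-in 1 to 5. Arpc1a was at 48.7, 48.0, 50.9, 52.9 and 47.4 CPM and at 48.3, 51.9, 53.2, 52.8 and 52.7 CPM. Arpc1b thus had 6.26 ± 0.685 times the per-length level of its neighbour in the controls and 6.40 ± 0.351 times in the knock-in macrophages, and the groups overlapped for both genes. The scatter of Arpc1b was wide in the controls, with control 1 lowest and control 3 highest, and narrow in the knock-in macrophages. Gm5637 matches 1119 bases of Arpc1b at 97.5% identity, and how reads were divided between them was not tested.

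The 2 promoters are shown because these neighbours are paralogs with different levels. Each runs from 250 bases before to 50 bases after the RefSeq gene start (GRCm38.p6, plus strand), Arpc1a at chr5:145083619-145083918 and Arpc1b at chr5:145114006-145114305. Capitals mark GAGGAAGT, a sequence bound by PU.1, the ETS factor of the myeloid lineage, which was searched on both strands.
Arpc1a: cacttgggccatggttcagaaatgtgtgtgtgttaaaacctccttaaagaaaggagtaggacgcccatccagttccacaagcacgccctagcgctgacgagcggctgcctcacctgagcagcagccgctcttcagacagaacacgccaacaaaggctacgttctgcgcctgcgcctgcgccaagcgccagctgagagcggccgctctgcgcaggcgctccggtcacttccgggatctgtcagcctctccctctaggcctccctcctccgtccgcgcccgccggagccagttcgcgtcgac
Arpc1b: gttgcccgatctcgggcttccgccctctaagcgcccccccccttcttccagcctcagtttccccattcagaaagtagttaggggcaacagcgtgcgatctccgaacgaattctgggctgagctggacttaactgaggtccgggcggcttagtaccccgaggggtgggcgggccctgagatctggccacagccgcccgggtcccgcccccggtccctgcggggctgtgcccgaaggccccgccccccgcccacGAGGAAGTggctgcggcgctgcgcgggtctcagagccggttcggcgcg
The match in Arpc1b begins 3 bases after the start, and Arpc1a has no match in this window. Only this exact sequence was searched, so other sequences bound by ETS factors are not marked in either window. Both windows are rich in G and C, at 69.3% for Arpc1b and 63.0% for Arpc1a. Of the 37 members, 32 had a promoter in the table and 4 had a match. The other 3 sites, printed as 30 bases in the direction of the gene, lie at chr13:20090527-20090556 for Elmo1, chr7:102250115-102250144 for Rhog (minus strand) and chr17:57279078-57279107 for Vav1.
Elmo1: gccagcaggaggaaggaaGAGGAAGTgaga
Rhog: cccacccccccACTTCCTCcggcctccagt
Vav1: cagtcacagaaGAGGAAGTggtgttgtagt
In Rhog the reverse complement is present. The sequence is held by 3.20% of all 32851 RefSeq promoters and by 9.30% of the 43 promoters of members. The sequence was chosen after the levels were known, and a match describes the letters only. Binding was not analysed here.

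Cfl1, or cofilin, which severs old filaments, was the highest member per length. It was at 1171, 1154, 1179.5, 1149.5 and 1123 CPM in controls 1 to 5 and at 1224, 1287, 1232, 1099.6 and 1333 CPM in knock-in 1 to 5. In the knock-in group 4 libraries lay above all controls and knock-in 4 below all of them (log2 0.096 ± 0.056, adjusted p = 0.819). Without knock-in 4 the log2 difference was 0.13 and still did not pass (adjusted p = 0.553). Pfn1, or profilin, which recharges actin monomers, was at 540.3 ± 26.1 and 571 ± 32.3 CPM. Coro1a, coronin of blood cells and the lowest per length of the 3, was at 154, 209, 239, 213 and 201 CPM and at 219, 219, 219, 197 and 189 CPM. Control 1 held the lowest value of Coro1a and control 3 the highest, and all knock-in values lay between them.

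Myo1f, a class I myosin of blood cells, was at 794, 896, 981, 913 and 938 CPM in controls and at 992, 955, 916, 876 and 948 CPM in knock-in cells (log2 0.052 ± 0.062, adjusted p = 0.906). Myo1e, its partner at the phagocytic cup, was at 385 ± 25.9 and 379.9 ± 32.5 CPM, and Myo1f had 2.71 ± 0.323 and 2.84 ± 0.166 times its per-length level. Dnm2, dynamin, the GTPase that cuts membrane necks, was at 133, 132, 151, 144 and 135 CPM and at 137, 147, 137, 137 and 147 CPM. Its interval of the log2 difference ran from -0.096 to 0.13.

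**Figure D4:**
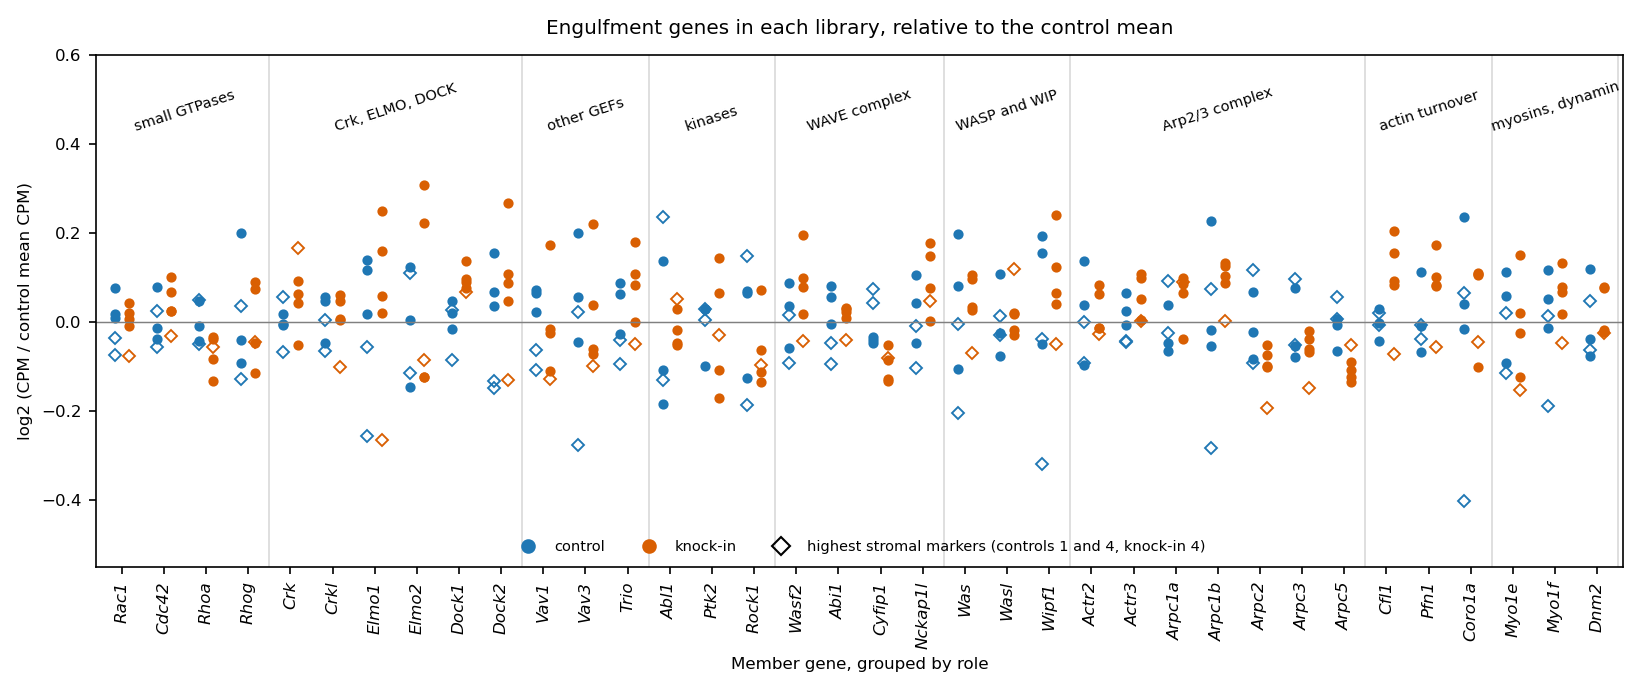
log2 of each library's CPM over the control mean of the gene, for the 36 tested members by role; circles and diamonds are libraries, open diamonds the 3 with the highest stromal markers. The widest single deviations are the low control 1 values of Coro1a and Wipf1 and the high knock-in 1 value of Elmo2, and the open orange diamond of knock-in 4 is often the lowest of its group.

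The scatter between libraries of a group was small for most members. The median coefficient of variation among the controls was 5.55% over the 36 members, against 8.41% over the 6296 tested genes at or above the mean level of the lowest member. Among the knock-in libraries the values were 4.73% and 5.82%. These comparison genes share only a lower limit with the members and were not matched to them in level. Over all 12411 tested genes the medians were 11.3% and 8.44%, so the scatter varied with level. The most variable members in the controls were Coro1a (15.3%) and Wipf1 (13.7%), and the least variable was Cfl1 (1.91%).

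In the knock-in group the low values often belonged to a single library. Knock-in 4 was the lowest of the 5 knock-in libraries for 23 of 36 members, while it was the lowest for 25.6% of all tested genes. With the 2 other scalings the count was 21 and 20. Controls 1 and 4 were the 2 lowest controls for 7 of 36 members (19.4%), close to the 15.1% of all tested genes. For 5 members, Rac1, Elmo1, Dock2, Trio and Abi1, controls 1 and 4 and knock-in 4 held the 3 lowest values of all 10 libraries, which was so for 5.15% of all tested genes and for 5 members under each scaling. For 0 members they held the 3 highest, against 5.94% of all tested genes. These are the libraries with the most stromal and neutrophil marker RNA. The part of these other cells in the low values was not tested.

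**Figure D5:**
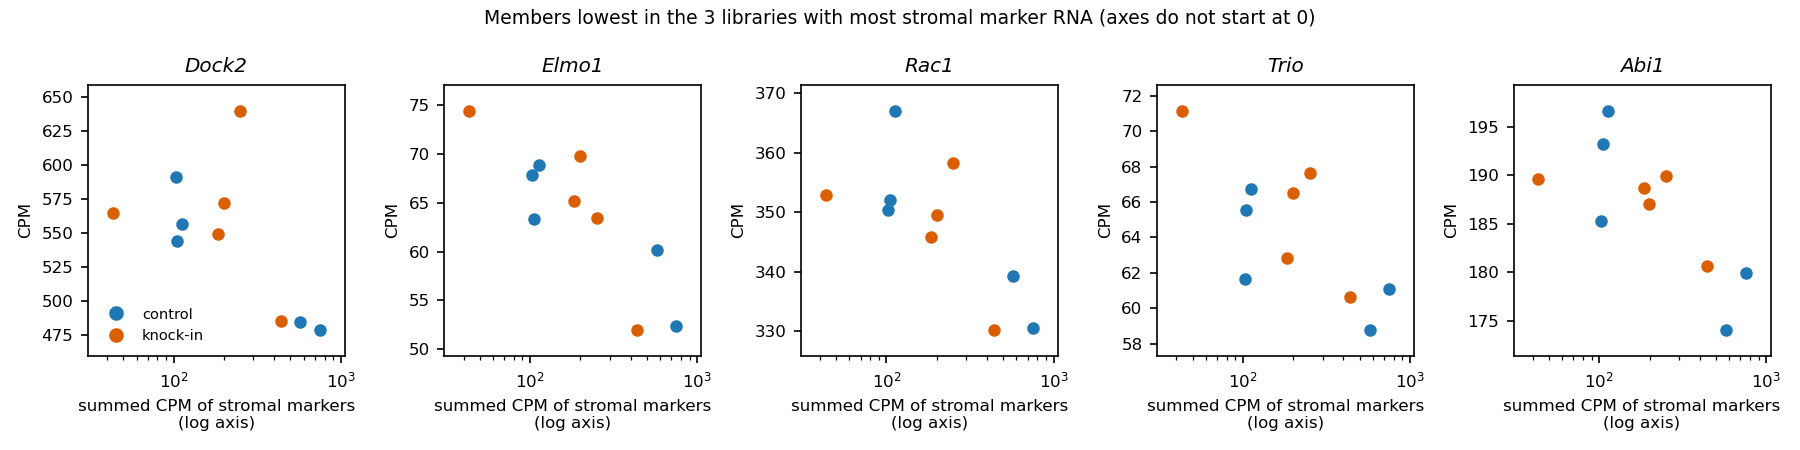
CPM of Dock2, Elmo1, Rac1, Trio and Abi1 in each library against the summed CPM of 10 stromal markers including Fn1 (log axis). The 3 libraries at the right, controls 1 and 4 and knock-in 4, hold the 3 lowest values of each gene.

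The further genes of the pathway gave the same count. Of 101 such genes, 96 were tested and 0 passed in edgeR, DESeq2, limma-voom or limma-trend, with 51 positive and 45 negative fold changes and a median of 0.0088. An unadjusted p under 0.05 was found for 4 of them (Cyfip2 higher; Pfn2, Bin2 and Capza2 lower), which is 4.17% against 6.21% of all tested genes. Besides Cyfip2, the smallest p of the positive ones was that of Capza1, a subunit of the protein that caps actin filaments, at 215, 298, 269, 206 and 277 CPM in controls and 286, 283, 300.4, 297 and 285 CPM in knock-in cells. Controls 1 and 4 were the lowest for Capza1, controls 3 and 5 also lay below every knock-in library, and only control 2 lay within the knock-in range (log2 0.20 ± 0.093, adjusted p = 0.799). Pfn2, a profilin at a low level here, was at 3.19, 3.65, 3.60, 3.57 and 3.77 CPM and at 3.41, 2.67, 2.23, 1.79 and 3.01 CPM (log2 -0.44 ± 0.17, adjusted p = 0.737). Bin2, a BAR-domain protein that bends membranes, was at 97.4, 87.6, 94.96, 95.4 and 92.5 CPM and at 87.4, 86.6, 84.8, 90.8 and 80.7 CPM (log2 -0.12 ± 0.049, adjusted p = 0.744). For both genes 1 knock-in library reached into the control range.

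Some members share sequence with other genes, so that their reads may be divided. On the opposite strand 12 members have exons that overlap another gene, and no source used here says whether counting used the strand. Rac1 shares 2309 bases with Daglb in this way, and Daglb was at 360.1 ± 36.1 and 385 ± 22.7 CPM. Actr3 matches the copy Gm8822 at 98.8% identity over 2348 bases. In all, 7 members share at least 300 bases at 95% identity or more with another annotated gene, and their values are uncertain to that extent.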

How the data were processed

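Strand-specific poly(A)+ libraries were sequenced as read pairs, per the labels' protocols. The authors deposited estimated counts per gene, and their processing notes name Salmon 1.6.0, DESeq2 1.34.0, GRCm39 and mm10 without roles or an annotation release. They also deposited log2 values on the regularized-log scale, per the file name.

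Estimated counts were rounded. Symbols came from the deposited log2 table, then GENCODE M21 (GRCm38), which gave positions and exon lengths by gene ID. edgeR 4.0.16 (R 4.3.3) used TMM factors, filterByExpr (minimum count 10, total 15), robust dispersion and genotype as the only term over 10 libraries. The threshold was an adjusted p of 0.05. Intervals are 95% and use the moderated degrees of freedom. Levels per length are CPM over the union of exons. P-values measure the spread between these libraries, of which no pair within a group appeared to be copies (chi-square per gene 8.75 to 54.5).

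The members, lists and alternatives were chosen with earlier results of these data known. Genes given per library were the 3 members with the smallest p of each sign and the highest and lowest of each role by level per length, and of the further pathway genes the 2 with the smallest p of each sign. Arpc1b in full, Capza2, Daglb, Nipa2 and the paralogs outside the list were named after their values were seen. The alternatives used RLE or upper-quartile scaling, DESeq2 1.42.0, limma 3.58.1 (voom, and trend on the deposited log2 values), 2 filters, no robust estimation, a replicate block, and each library left out in turn. Leaving out controls 1 and 4 and knock-in 4 together, which had the highest stromal markers, was added after seeing the data. On simulated data with 12411 genes and genes of at least 10 CPM changed, edgeR recovered 90% of 50 genes changed 1.5-fold. It recovered 24% of 50 at 1.25-fold, the smallest fold simulated, with 5 false calls. More genes were changed there than the 10 that edgeR called in these data, so recovery here may be lower.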

Additional observations from a re-analysis of the deposited data

Results flagged for a closer look

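Among 82 groups of 5 values tested for a single library far from the others, 2 were singled out, and chance alone singles out about 1 in 20 such groups. Ptk2 was at 21.4 CPM in control 3, below the 22.97 to 23.4 CPM of the other controls. Arpc1a was at 48.3 CPM in knock-in 1, below the 51.9 to 53.2 CPM of the other knock-in libraries. Both distances are small beside the level of the gene.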

How the results depend on the processing

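Under all 20 alternatives 0 members and 0 further pathway genes passed, and the lowest adjusted p of a member was 0.319 (Arpc5, DESeq2). The sign of the fold change held in all of them for 21 of 36 members, and the largest change of a member in any was 0.16 on the log2 scale (Arpc1b). Over all genes, edgeR called 10, DESeq2 49, and edgeR without the 3 libraries with the most stromal marker RNA 38. Leaving out 1 library gave 6 to 23 genes, with the low count reached by dropping control 2 or any of the first 3 knock-in libraries and 23 without knock-in 4. With the replicate number as a block 12 genes were called, again 0 of them members. Replicate numbers are not said to pair mice, so they were not taken as pairs. Deviations of libraries with the same number correlated at -0.20 to 0.51, and 2 of 5 controls matched their own number best. The highest correlation joined control 4 and knock-in 4, which both had high stromal markers, so these values cannot decide on pairing. With 5 libraries per group, changes under 1.5-fold could be missed by the adjusted test.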
